A study of Zea mays with 10 samples.

Results

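The genes described here are 9 maize regulators of the change from juvenile to adult leaves and of the floral transition, chosen by gene identifier from the 109874 genes of the expression table: *gl15*, *rap2.7*, *mads69*, *mads1*, *dlf1*, *id1*, *zmm4*, *zmm15* and *zap1*. They were measured by mRNA sequencing of shoot tips dissected from *lbl1* and wild-type (WT) seedlings at an age of 2 weeks. Besides the meristem these vegetative tips contain young leaves, at most 5 primordia. The mutants carry the *lbl1-rgd1* allele, which was introgressed into the inbred line B73, and the WT is B73 itself. *lbl1* encodes the maize SGS3 protein, which is needed to make trans-acting small interfering RNAs. The question asked of these genes is whether apices of equal age stood at the same vegetative stage in both genotypes.

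Shoots pass through a juvenile and an adult vegetative phase before the meristem turns to making an inflorescence. In maize, *gl15* keeps leaves juvenile, *rap2.7* holds back flowering, and *mads69* promotes flowering by lowering *rap2.7*. The florigen, an FT-like protein made in leaves, acts in the apex together with the bZIP protein of *dlf1*, after which AP1/FUL-like MADS-box genes come on. In Arabidopsis, loss of SGS3 brings the change to adult leaves forward. For maize, the paper reports higher miR156, a microRNA that represses this change, in *lbl1* apices. It writes that this might imply a delayed change, and that it could also be a consequence of the phenotype.

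Of the 9 genes, 5 were at 1 RPKM or more in at least one genotype, and 4 were under 1 RPKM in both. RPKM is the number of reads scaled to transcript length and to the mapped reads of the library, so its levels can be compared between genes. Among the 5 genes, *gl15* and *rap2.7* were somewhat higher in *lbl1*, and *mads69*, *dlf1* and *mads1* were lower. Only *mads69* differed at least 2-fold. Thus 1 of 5 genes was at least 2-fold lower in *lbl1*, where 12.9% of the 29929 genes at 1 RPKM or more in either genotype were, and a single gene among 5 does not set the group apart from that share. None of the 5 was at least 2-fold higher, where 12.6% of those genes were. The median log2 ratio, *lbl1* over WT, was −0.22 for the 5 genes and −0.10 for all 29929 genes.

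The table gives 1 RPKM value per gene and genotype, made from the 2 mRNA samples of that genotype together. No SD can be given, no test of a difference was made, and the values below describe these pooled libraries. Read totals, which the paper summarises in its supplement, were not used here, so the depth was not assessed. Because apices are mixtures, fewer cells of a type and less RNA per cell cannot be told apart. The ratios of all genes were shifted slightly, with a median log2 ratio of −0.10 over the 24760 genes at 1 RPKM or more in both genotypes, and values given relative to this median gene have the shift removed. The mutated gene *lbl1* (GRMZM2G020187), which lies on chromosome 6 from 17165362 to 17171793, gave 226 RPKM in *lbl1* apices and 301 RPKM in WT apices, so its level alone does not tell the genotypes apart. None of the 9 genes lies on chromosome 6, which carries the introgressed allele. Positions are those of B73 RefGen_v2 and span whole loci, counted from 1.

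**Figure D1:**
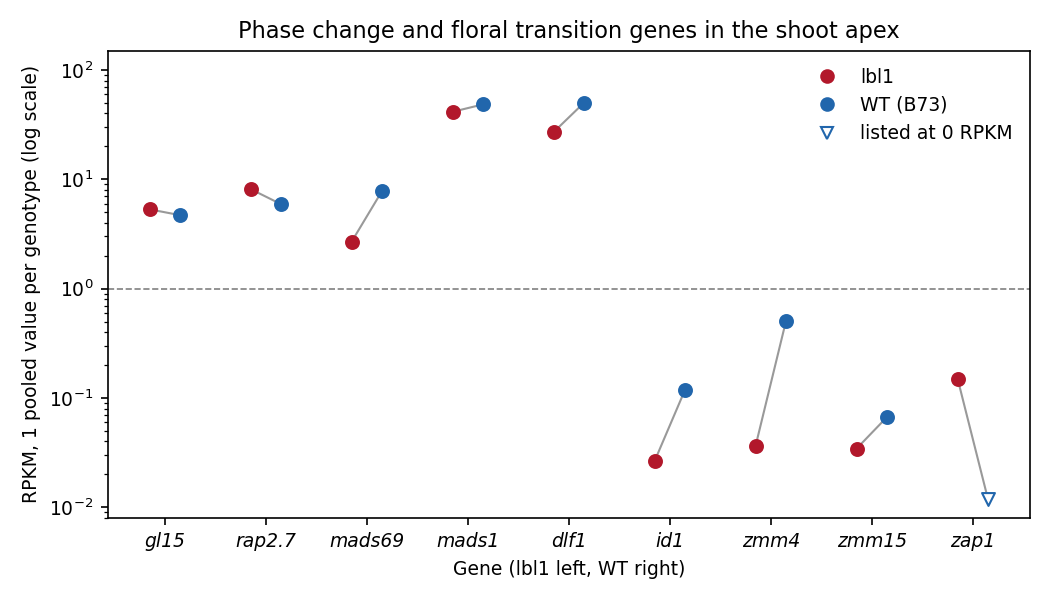
RPKM on a log scale of the 9 genes, with the pooled *lbl1* value at the left and the pooled WT value at the right of each pair, and no error bars because each genotype has 1 value per gene. *gl15*, *rap2.7*, *mads69*, *mads1* and *dlf1* lie above the dashed line at 1 RPKM and the other 4 genes lie below it, with *zap1* listed at 0 in WT.

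*gl15* (GRMZM2G160730, chromosome 9, 95739338 to 95742689) encodes an AP2-like factor that maintains juvenile leaf traits such as epicuticular wax, and its transcript is a target of miR172. It was at 5.31 RPKM in *lbl1* and 4.70 RPKM in WT. The levels were close, 1.13-fold higher in *lbl1*, a log2 ratio of 0.18 and of 0.28 relative to the median gene. Its locus overlaps no other annotated gene. Of the 9467 genes with a mean of 5 to 20 RPKM over both genotypes, 28.8% were at least as much higher in *lbl1* as *gl15*, so that a ratio of this size was common at this level.

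*rap2.7* (GRMZM2G700665, chromosome 8, 132044001 to 132047428) encodes a second AP2-like factor, a repressor of flowering, and is likewise a miR172 target. It was at 8.13 RPKM in *lbl1* and 5.92 RPKM in WT, a ratio of 1.37 and a log2 ratio of 0.46. This was the highest ratio of the 5 genes. It too lay within the usual range, as 17.5% of genes of this level were at least as much higher in *lbl1*. The locus also holds GRMZM5G816341, which was at 2.44 RPKM in *lbl1* and listed at 0 RPKM in WT, and reads could have been divided between these genes.

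*mads69* (GRMZM2G171650, chromosome 3, 158979321 to 159007265) encodes a MADS-box factor that promotes flowering. It was at 2.69 RPKM in *lbl1* and 7.80 RPKM in WT. The level was 2.90-fold lower in *lbl1*, with a log2 ratio of −1.53 and of −1.43 relative to the median gene. Among genes with a mean of 5 to 20 RPKM, 449 of 9467 (4.74%) were at least as much lower in *lbl1*, and the 5th percentile of the log2 ratio was −1.19. The mean of *mads69* was 5.24 RPKM, close to the lower edge of this band. In the band of 1 to 5 RPKM the 5th percentile was −1.83, beyond the value of *mads69*.

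The locus of *mads69* overlaps 4 other annotated genes, which were low. The highest of them, AC205520.3_FG004, was at 0.951 RPKM in *lbl1* and listed at 0 RPKM in WT. The nearest gene before *mads69* at 1 RPKM or more, GRMZM2G171622, ends 953 bp away and was at 11.2 RPKM in *lbl1* and 12.5 RPKM in WT. The nearest such gene after it, GRMZM5G878561, starts 370488 bp away and was at 3.06 RPKM in *lbl1* and 9.58 RPKM in WT. The closer neighbour thus had nearly equal levels, while the distant one was 3.13-fold lower in *lbl1*. Within 500 kb of *mads69*, 2 of 10 genes were at least 2-fold lower in *lbl1* and 1 was at least 2-fold higher. Over all 29929 genes these shares were 12.9% and 12.6%.

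**Figure D2:**
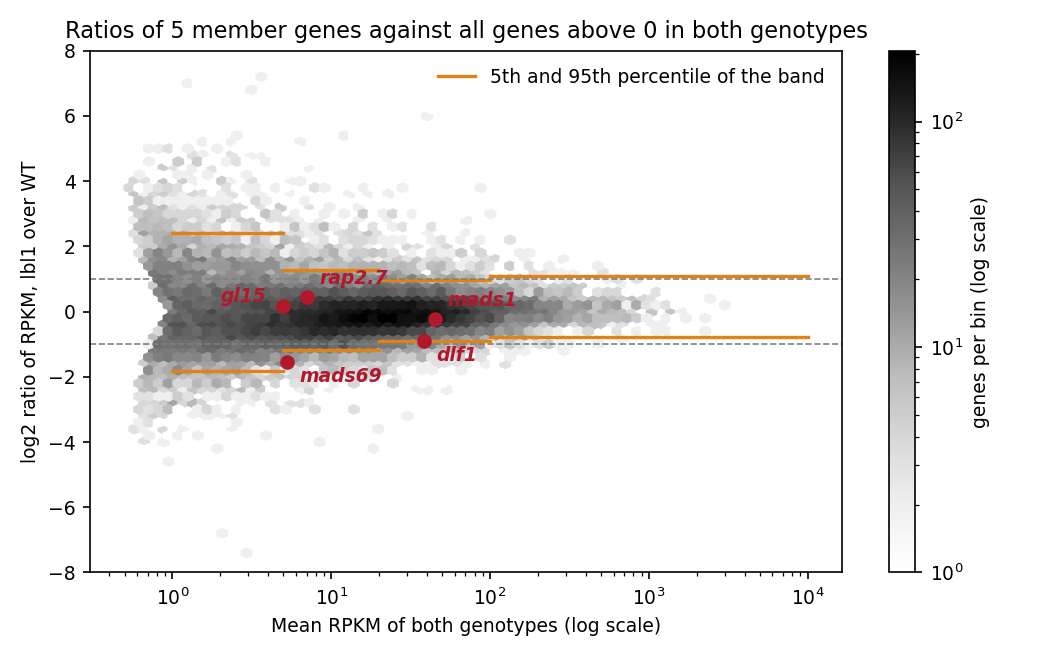
Log2 ratio of RPKM, *lbl1* over WT, against the mean RPKM of both genotypes on a log scale, for genes at 1 RPKM or more in either genotype and above 0 in both, with grey shading for the number of genes per bin. Red points are *gl15*, *rap2.7*, *mads69*, *mads1* and *dlf1*, orange lines the 5th and 95th percentile in bands of mean RPKM, and dashed lines a 2-fold difference, beyond which only *mads69* lies, at −1.53.

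Since *rap2.7* acts downstream of *mads69*, their levels were also set against each other within a genotype. *rap2.7* was at 3.02 times the RPKM of *mads69* in *lbl1* and at 0.760 times in WT. The order of both genes was therefore opposite in the 2 genotypes, with a 3.97-fold difference between the ratios. Most of this difference came from *mads69*.

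*mads1* (GRMZM2G171365, chromosome 9, 153812731 to 153832523) encodes a SOC1-like MADS-box factor, a class that joins flowering signals in the meristem. Its transcript was at 41.5 RPKM in *lbl1* and 48.5 RPKM in WT, a ratio of 0.856 and a log2 ratio of −0.22. It was the highest of the 9 genes in *lbl1*, and above 83.0% of the 29929 genes there and 85.6% in WT. Of the 8383 genes with a mean of 20 to 100 RPKM, 34.8% were at least as much lower in *lbl1*. The gene that shares its locus was listed at 0 RPKM in both genotypes.

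*dlf1* (GRMZM2G067921, chromosome 7, 175538274 to 175539760) encodes the FD-class bZIP partner of florigen, and mutants flower late. It was at 27.0 RPKM in *lbl1* and 50.1 RPKM in WT. The level was 1.85-fold lower in *lbl1*, with a log2 ratio of −0.89 and of −0.79 relative to the median gene. Among genes of this level, 487 of 8383 (5.81%) were at least as much lower. *dlf1* stood above 74.1% of the 29929 genes in *lbl1* and above 86.2% in WT.

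GRMZM5G858064 shares the locus of *dlf1* and was at 99.5 RPKM in *lbl1* and 112 RPKM in WT. The overlapping gene was thus more abundant than *dlf1*, at a ratio of 0.891 between the genotypes, and a division of reads between both genes was not tested. *dlf1* was at 0.652 times the level of *mads1* in *lbl1* and at 1.03 times in WT. The neighbour before *dlf1*, GRMZM2G324973, was also lower, at 108 RPKM in *lbl1* and 166 RPKM in WT, whereas the one after it, GRMZM2G032711, was at 54.0 RPKM in *lbl1* and 55.1 RPKM in WT. Within 500 kb of *dlf1*, 2 of 27 genes were at least 2-fold lower and 0 at least 2-fold higher, against 12.9% and 12.6% of all genes.

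The remaining 4 genes were under 1 RPKM in both genotypes, where the fold depends strongly on small differences in RPKM. *id1* (GRMZM2G011357, chromosome 1, 239608944 to 239612267) encodes a zinc finger protein of immature leaves that is needed for the floral transition. It was at 0.0265 RPKM in *lbl1* and 0.118 RPKM in WT. Its log2 ratio of −2.16 became −0.12 when 1 RPKM was added to both values.

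The other 3 are AP1/FUL-like MADS-box genes, which mark a meristem that has become reproductive. *zmm4* (GRMZM2G032339, chromosome 1, 277151350 to 277232124) was at 0.0364 RPKM in *lbl1* and 0.501 RPKM in WT. Its locus overlaps those of 3 other genes. *zmm15* (GRMZM2G553379, chromosome 5, 6985304 to 7003515), a close relative of *zmm4*, was at 0.0344 RPKM in *lbl1* and 0.0667 RPKM in WT. *zap1* (GRMZM2G148693, chromosome 2, 235844921 to 235854324) was at 0.151 RPKM in *lbl1* and listed at 0 RPKM in WT, so no fold is given. None of the 3 reached 1 RPKM in either genotype, and adding 1 RPKM to both values brought the log2 ratios of *zmm4* and *zmm15* to −0.53 and −0.04. Only reads with a unique position were counted, so reads of near-identical stretches of related MADS-box genes may be missing.

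Around all 9 genes, 210 genes at 1 RPKM or more lay within 500 kb. Of these, 17 were at least 2-fold higher in *lbl1* and 24 at least 2-fold lower, against 12.6% and 12.9% of all 29929 genes. Close to *gl15*, no gene was at least 2-fold higher and 2 of 12 were at least 2-fold lower. Around *mads1* these numbers were 2 and 7 of 45 genes, and around *rap2.7* they were 4 and 2 of 16. Next to *mads1*, GRMZM2G171464, which starts 10881 bp past it, was at 0.180 RPKM in *lbl1*, 8.34-fold lower than in WT. The nearest gene past *gl15* at 1 RPKM or more, GRMZM5G819912, starts 252521 bp away. It was listed at 0 RPKM in *lbl1* and at 17.5 RPKM in WT.

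The 9 genes were then placed among the families and pathways they belong to. The AP2-like list, with *gl15* and *rap2.7*, had 4 genes, all at 1 RPKM or more and none 2-fold different. Its most abundant gene was *ids1* (GRMZM5G862109), which acts in spikelet meristems, at 25.0 RPKM in *lbl1* and 34.1 RPKM in WT. The fourth gene, *sid1*, a relative of *ids1*, was at 3.80 RPKM in *lbl1* and 5.03 RPKM in WT. Both AP2-like genes outside the 9 were therefore lower in *lbl1*, whereas *gl15* and *rap2.7* were higher. The median log2 ratio over the 4 genes was −0.11, near that of all genes.

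SBP-box genes encode transcription factors that promote adult traits, and many are targets of miR156, the microRNA of the juvenile phase. Of 24 listed genes, 19 were at 1 RPKM or more, of which 5 (26.3%) were at least 2-fold lower in *lbl1* and 0 at least 2-fold higher, against 12.9% and 12.6% of all 29929 genes. Ratios were below 1 for 15 of the 19 genes, or below that of the median gene for 14. The median log2 ratio was −0.56, against −0.10 for all genes. The summed level of the 24 genes was 252 RPKM in *lbl1* and 344 RPKM in WT.

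Of the SBP-box genes past 2-fold, *sbp29* (GRMZM2G067624), whose locus is shared with another gene, was at 6.64 RPKM in *lbl1* and 33.5 RPKM in WT. *sbp21* (GRMZM2G148467) was at 1.52 RPKM in *lbl1* and 10.6 RPKM in WT. *ub2* (GRMZM2G160917), which limits the number of kernel rows, was at 7.94 RPKM in *lbl1* and 19.3 RPKM in WT. These genes were 5.05-fold, 7.01-fold and 2.42-fold lower. The other two were lowly expressed. GRMZM2G101499, named *sbp3*, was at 1.93 RPKM in *lbl1* and 4.72 RPKM in WT, and it lies on chromosome 6, 77.9 Mb from *lbl1*. *tga1* (GRMZM2G101511), a regulator of the casing of the maize kernel, was at 1.30 RPKM in *lbl1* and 2.72 RPKM in WT. Against this direction, *sbp16* (GRMZM2G169270), the most abundant gene of the list, was at 69.2 RPKM in *lbl1* and 54.8 RPKM in WT.

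**Figure D3:**
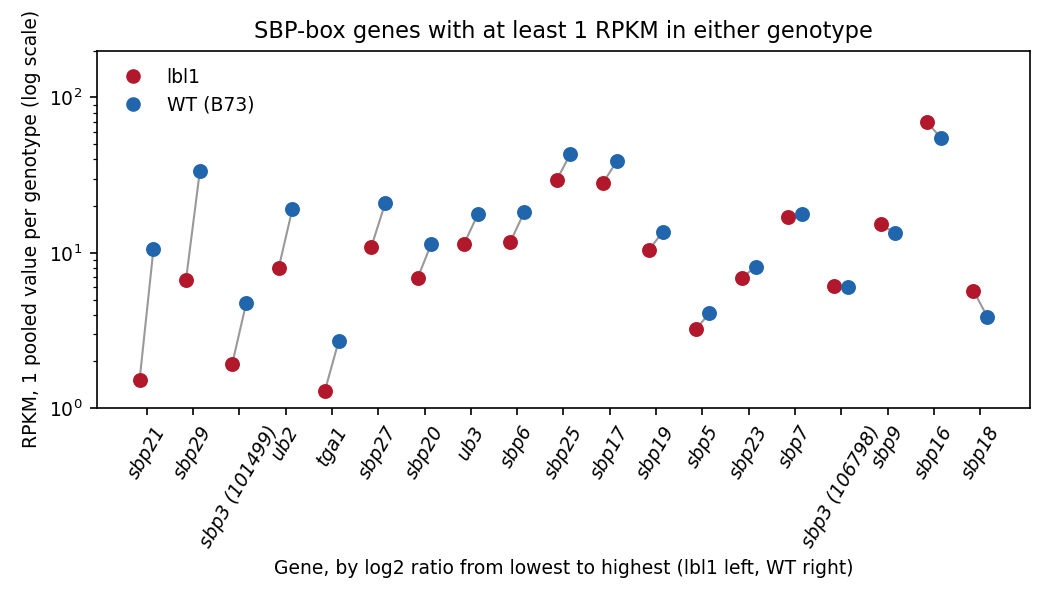
RPKM on a log scale of the 19 SBP-box genes at 1 RPKM or more in either genotype, ordered by log2 ratio, with the pooled *lbl1* value at the left and the pooled WT value at the right of each pair and no error bars. The *lbl1* value is the lower one for 15 genes, and 2 genes share the name *sbp3*, so the last digits of their identifiers are given.

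The florigen list held 26 genes, namely the FT- and TFL1-like genes named *ZCN* and *dlf1*, of which 12 were listed at 0 RPKM in both genotypes. Only 5 reached 1 RPKM. Of these, 2 were at least 2-fold higher in *lbl1* and 0 at least 2-fold lower, against 12.6% and 12.9% of all genes. *ZCN1* (GRMZM2G092008), a TFL1-like gene of the class that delays flowering, was at 53.1 RPKM in *lbl1* and 26.2 RPKM in WT, and its locus is shared. *ZCN6* (GRMZM2G132880) was at 1.66 RPKM in *lbl1* and 0.589 RPKM in WT. The most abundant gene of the list in WT was *ZCN3* (GRMZM2G338454), at 35.4 RPKM in *lbl1* and 62.8 RPKM in WT, so that TFL1-like genes differed in both directions. *ZCN8*, the florigen gene of maize leaves, was at 0.0923 RPKM in *lbl1* and 0.183 RPKM in WT. The median log2 ratio of the 5 genes, 0.13, turned to −0.83 when only genes at 5 RPKM or more were kept.

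The MADS-box family, to which 5 of the 9 genes belong, differed in both directions. Of 42 listed genes, the 9 genes' MADS-box members included, 16 were at 1 RPKM or more, with 6 (37.5%) at least 2-fold lower and 2 (12.5%) at least 2-fold higher, against 12.9% and 12.6% of all genes. Without *mads69* and *mads1*, these numbers were 5 and 2 of 14, and the median log2 ratio was −0.36. *zmm19* (GRMZM2G370777), an SVP-like gene, was the most abundant, at 379 RPKM in *lbl1* and 497 RPKM in WT. *m26* (GRMZM2G046885) was at 99.4 RPKM in *lbl1* and 212 RPKM in WT. These values exceed those of *mads1*, the highest MADS-box gene of the 9.

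The other MADS-box genes past 2-fold were less abundant. *MADS76* (GRMZM2G070034) was at 7.28 RPKM in *lbl1* and 16.2 RPKM in WT, on a shared locus. *MADS62* (GRMZM5G878490) was at 2.58 RPKM in *lbl1* and 5.40 RPKM in WT. *MADS34* (GRMZM2G137510) was at 1.32 RPKM in *lbl1* and 4.80 RPKM in WT. All were lower in *lbl1*, as was *m28* (GRMZM2G147716), at 0.289 RPKM in *lbl1* and 1.84 RPKM in WT. Higher in *lbl1* were *ZAG1* (GRMZM2G052890), an AGAMOUS-like gene of floral organs, at 5.89 RPKM in *lbl1* and 0.847 RPKM in WT, and *m18* (GRMZM5G805387), at 2.27 RPKM in *lbl1* and 1.12 RPKM in WT. Both loci are shared with another gene, and *ZAG1* lies on chromosome 6, 114.7 Mb from *lbl1*.

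Photoperiod and clock genes act before the florigen, mainly in leaves. Of 13 listed genes, *id1* among them, 11 were at 1 RPKM or more and none differed 2-fold. Ratios were below 1 for 8 of the 11, or below that of the median gene for 7. The median log2 ratio was −0.33, against −0.10 for all genes. The *GIGANTEA* gene *gigz1a* (GRMZM2G107101) was the most abundant, at 72.5 RPKM in *lbl1* and 114 RPKM in WT.

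Genes that shape inflorescences were mostly at low levels. Of 9 listed genes, 6 were at 1 RPKM or more. Of these, 2 were at least 2-fold higher in *lbl1* and 0 at least 2-fold lower, against 12.6% and 12.9% of all genes. The first, *BA1* (GRMZM2G397518), needed for axillary meristems, was at 2.95 RPKM in *lbl1* and 0.153 RPKM in WT. *TB1* (AC233950.1_FG002), which holds back axillary buds, was at 1.29 RPKM in *lbl1* and 0.341 RPKM in WT. The most abundant gene, *zfl2* (GRMZM2G180190), one of the LEAFY genes of maize, was at 14.4 RPKM in *lbl1* and 20.7 RPKM in WT. *ra1*, a gene of inflorescence branching, was at 0.142 RPKM in *lbl1* and listed at 0 RPKM in WT. The median log2 ratio of the 6 genes was 0.10, and it was −0.52 with only genes at 5 RPKM or more and 1.43 with no filter.

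**Figure D4:**
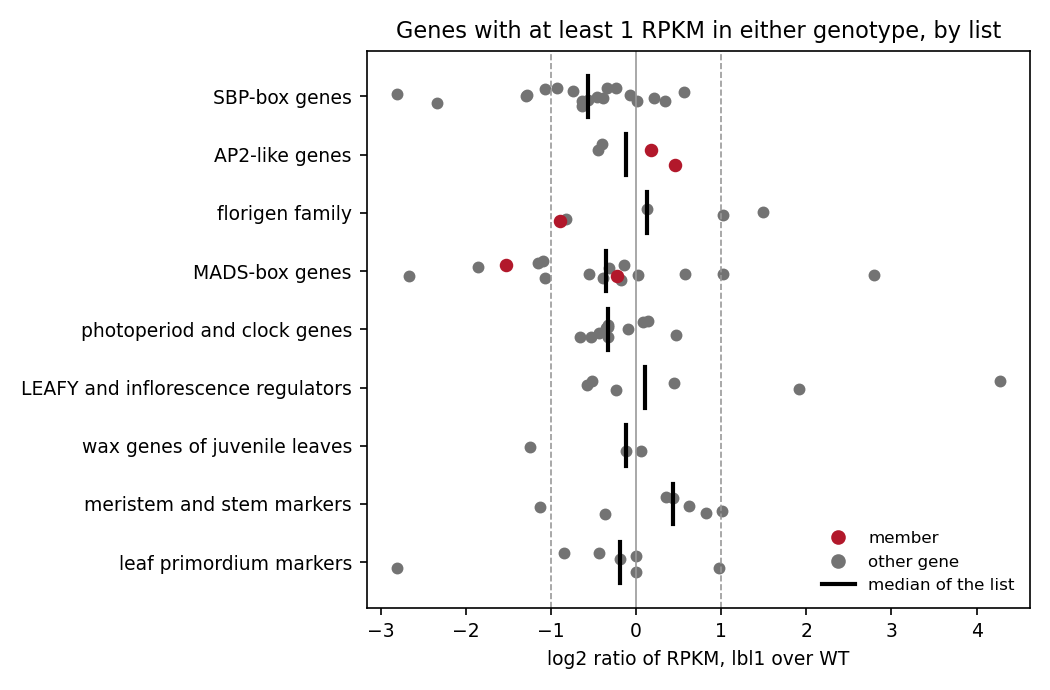
Log2 ratio of RPKM, *lbl1* over WT, of each gene at 1 RPKM or more in either genotype, by list. *gl15*, *rap2.7*, *mads69*, *mads1* and *dlf1* are in red and other genes in grey. Black bars give the median of each list, and dashed lines a 2-fold difference. Markers of the green blade and of inflorescences and floral organs are not shown. The median of the SBP-box genes lies at −0.56 and that of the meristem and stem markers at 0.44, and *gl15* and *rap2.7* are the highest AP2-like genes.

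Some markers of the cell types in the samples differed between the genotypes too, and their part in the ratios above was not tested. Meristem and stem markers were all listed above 0 in at least one genotype, and 7 of 9 were at 1 RPKM or more. Their summed level was 263 RPKM in *lbl1* and 173 RPKM in WT, 1.52-fold higher, and 5 of the 7 ratios were above 1. The KNOX gene *KN-1* (GRMZM2G017087), the defining meristem gene, was at 122.5 RPKM in *lbl1* and 69.3 RPKM in WT. The KNOX gene *lg3* (GRMZM2G087741) was at 51.3 RPKM in *lbl1* and 25.6 RPKM in WT. Against this, *TD1* (GRMZM2G300133), which restrains meristem size, was at 2.53 RPKM in *lbl1* and 5.54 RPKM in WT. *wus1* was listed at 0 RPKM in *lbl1* and at 0.198 RPKM in WT, and *wus2* was at 0.0502 RPKM in *lbl1* and listed at 0 RPKM in WT.

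Leaf primordium markers were all at 1 RPKM or more in at least one genotype, and their summed level was 237 RPKM in *lbl1* and 295 RPKM in WT. Relative to the median gene, 4 of the 7 were lower and 3 higher, and most of the difference between the sums lay in 1 gene. This gene, the most abundant of the list, was *rld1* (GRMZM2G109987), an HD-ZIP III gene of the adaxial leaf side, at 64.7 RPKM in *lbl1* and 117 RPKM in WT, on a shared locus. *ns1* (GRMZM2G069028), a WOX gene of the leaf margin, was at 0.380 RPKM in *lbl1* and 2.67 RPKM in WT, the only marker of this list past 2-fold. The YABBY gene *yab9* (GRMZM2G074543) went against the sum, at 21.4 RPKM in *lbl1* and 10.9 RPKM in WT, 1.97-fold higher. Nearly equal were *yab14* at 42.7 RPKM in *lbl1* and 42.6 RPKM in WT and *rs2* at 39.0 RPKM in both. Inflorescence and floral organ markers summed to 56.6 RPKM in *lbl1* and 57.5 RPKM in WT over 13 genes, 7 of which were under 1 RPKM in both genotypes. *ZAG1* and *BA1* were the only ones at least 2-fold higher in *lbl1*, and none was at least 2-fold lower, against 12.6% and 12.9% of all genes. All genes of this list also belong to the MADS-box list or to that of genes that shape inflorescences, so *ZAG1* and *BA1* were already counted there. Markers of the expanded green blade summed to 149 RPKM in *lbl1* and 53.2 RPKM in WT over 7 genes, and to 87.0 RPKM in *lbl1* and 52.8 RPKM in WT without the *Ppdk1* gene on chromosome 6 (GRMZM2G306345). *pep1* (GRMZM2G083841) among them, on a shared locus, was listed at 0 RPKM in both genotypes. A second gene named Pep1 (GRMZM5G899080), left out of the list, was at 70.5 RPKM in *lbl1* and 104 RPKM in WT, and the sum with it was 1.40-fold higher in *lbl1*, against 2.80-fold without it.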

How the data were processed

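The mRNA of *lbl1* and WT apices was sequenced by the authors from 2 samples per genotype. Per the paper's methods, reads were mapped to B73 RefGen_v2 with TopHat 1.2.0, and uniquely mapped reads were turned by Cuffdiff 1.0.3, with a minimum alignment count of 50, into the RPKM values that the authors deposited, 1 pooled value per genotype. The deposited table also holds the authors' fold changes, test statistics, p-values, q-values and calls, which were not used. Strand use in counting was not given in the sources used here. Whole reads could not be recovered, since each value pools samples and depends on transcript length. Read totals, which the paper summarises in its supplement, were not used here, so depth and counting error were not assessed. The 6 small RNA samples, 3 per genotype, were not analysed here.

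Ratios are *lbl1* over WT, without pseudocount, over genes at 1 RPKM or more in either genotype, and "2-fold" means a ratio of pooled values, with a gene listed at 0 in one genotype counted as past it. No test was made, since the values used pool both samples of a genotype. Start positions count from 0 in the table, and 1 was added. Genes whose spans overlap were taken to share a locus, as 19677 did. Lists were matched by symbols in the table, then by RefSeq names (Zm-B73-REFERENCE-NAM-5.0). IDs whose symbol belongs to another kind of gene (a heat shock factor binding protein and myosins) were left out. So was a second gene named Pep1, for its short locus, a criterion not applied to other genes. MicroRNA loci were not analysed here. Members and lists were chosen with earlier results of these data known. Named were all 9 genes and *lbl1*, and in each list the genes past 2-fold and the most abundant gene. *sid1*, *ZCN8*, *ra1*, *wus1*, *wus2*, *yab9*, *yab14*, *rs2*, *glossy8*, *gl8b*, *pep1*, *rca1*, *ssu1* and the neighbouring genes were named after their values were seen. Alternatives were other thresholds, filters, a pseudocount of 1 RPKM, scalings, and leaving out shared loci or chromosome 6. Python 3.11.15, numpy 2.4.6, pandas 2.3.3 and matplotlib 3.10.9 were used, and the functions were tested on simulated data.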

Additional observations from a re-analysis of the deposited data

How the results depend on the processing

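No replicate could be left out, and no paired analysis was possible because each genotype has 1 pooled value. Of the 29929 genes, 3761 were at least 2-fold higher in *lbl1* and 3849 at least 2-fold lower. The numbers were 5741 and 7050 at 1.5-fold, 1955 and 1757 at 4-fold, 8850 and 10426 with no filter on low RPKM, and 1755 and 1771 with a minimum of 5 RPKM. Without shared loci they were 2594 and 2537. Of the 9 genes, 1 was at least 2-fold lower and 0 at least 2-fold higher. The number lower was 2 at 1.5-fold, 0 at 4-fold, 3 with no filter and 0 without shared loci, which leaves out *mads69*, and the number higher was 1 with no filter. Their median log2 ratio, −0.22, became −0.89 with no filter, which adds genes under 1 RPKM. The medians of 3 lists changed sign. The florigen median of 0.13 was −0.0066 with no filter and −0.83 at 5 RPKM or more. At that minimum the median of the LEAFY and inflorescence list was −0.52, against 0.10, and that of the inflorescence and floral organ markers −0.20, against 0.14. These lists then hold fewer genes, and with no filter their medians were 1.43 and 0.73. *gl15*, *rap2.7*, *mads69*, *mads1* and *dlf1* kept their direction under the pseudocount and both scalings, and *mads69* ranged there from −1.45 to −1.25.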

Other observations

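Epicuticular wax is a trait of juvenile maize leaves, and genes named glossy act in its synthesis or transport. Of 5 such genes other than *gl15*, 3 were at 1 RPKM or more. *glossy2* (GRMZM2G098239), the most abundant in WT, was at 26.1 RPKM in *lbl1* and 61.9 RPKM in WT, 2.37-fold lower, on a locus shared with another gene. *glossy8* was at 26.5 RPKM in *lbl1* and 25.5 RPKM in WT, and *gl8b* at 10.1 RPKM in *lbl1* and 10.9 RPKM in WT, so the lower level was not common to the list.

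Several markers of the expanded green blade, which the dissected apices should hold little of, were higher in *lbl1*. Of 7 listed genes, 5 were at 1 RPKM or more, all with ratios above 1. Of these, 3 were at least 2-fold higher, against 12.6% of all genes. *ssu1* was nearly equal, at 4.17 RPKM in *lbl1* and 3.84 RPKM in WT, and a gene left out of the list, described below, was lower in *lbl1*. The *Ppdk1* gene on chromosome 6 (GRMZM2G306345), 129 Mb from *lbl1*, was at 62.2 RPKM in *lbl1* and 0.441 RPKM in WT. A further gene named *PPDK1* (GRMZM2G097457) was at 6.32 RPKM in *lbl1* and 1.35 RPKM in WT, and *me3* (GRMZM2G085019) at 14.9 RPKM in *lbl1* and 7.09 RPKM in WT. The defining C4 gene *pep1* (GRMZM2G083841) was listed at 0 RPKM in both genotypes, and *rca1* was at 0.366 RPKM in *lbl1* and 0.0524 RPKM in WT. Both loci are shared with other genes, and a division of reads between them was not tested. The sum over the 7 genes was 149 RPKM in *lbl1* and 53.2 RPKM in WT, or 87.0 RPKM in *lbl1* and 52.8 RPKM in WT without the gene on chromosome 6. A second gene that RefSeq names Pep1 (GRMZM5G899080) was left out for its locus of only 849 bp, a criterion not applied to other genes. It was at 70.5 RPKM in *lbl1* and 104 RPKM in WT, and with it, an alternative chosen after seeing the data, the sum was 219.8 RPKM in *lbl1* and 157 RPKM in WT, 1.40-fold higher, and the median log2 ratio of the list 0.83, against 1.07.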
